A study of Mus musculus with 6 samples.

Results

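Presynaptic vesicle and release machinery was examined as a set of 37 genes in RNA sequencing counts from the cerebral cortex of fetal mice. The set was defined by a list of gene symbols, and all 37 symbols were found among the 45583 rows of the deposited count table. The fetuses were male, labelled WT and SRY +, and belonged to the strain Cyp19-EGFP, which has an FVBN background and was made with a bacterial artificial chromosome that carries the aromatase gene Cyp19a1 with a green fluorescent protein inserted in it. Dams were injected subcutaneously from GD10.5 (gestational day) to GD14.5 with bisphenol A (BPA, a plastic monomer with weak estrogen-like activity) at 50 µg/kg, or with vehicle, which the labels give as peanut oil. Cortex was taken at GD15.5. There were 3 fetuses in each group, with 1 library per fetus. The dams of the fetuses were not identified, so the p-values below measure only the spread among these samples, whether they came from separate litters or not.

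A presynaptic terminal stores neurotransmitter in small vesicles and releases it when calcium enters. Vesicles are loaded by transporters in their membrane, held near the release site by synapsins, docked and primed at the active zone by large scaffold proteins, and fused with the plasma membrane by the SNARE proteins. Synaptotagmins sense calcium, complexins clamp and assist the SNARE complex, and the vesicle membrane is afterwards recovered by endocytosis. In the cortex of this age most synapses have not yet formed, and many of these proteins are present in growing axons.

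Total counts were 6870232, 7180835 and 5030652 in the vehicle libraries and 6426857, 6091954 and 3444601 in the BPA libraries. A count of 0 allowed a level of up to 0.422 CPM (counts scaled to the size of the library) in the deepest library and 0.875 CPM in the shallowest, by counting error alone. All 37 members were among the 13741 genes with enough counts to be tested, and 34 members had at least 100 counts in every library. The lowest count of any member was 30, for Vamp1 in BPA replicate 3, and the highest was 3166, for Vamp2 in vehicle replicate 2. The tissue was checked against 12 markers of postmitotic neurons, all of which were tested and whose summed level was 10718 to 12020 CPM in the 6 libraries, and against 8 markers of radial glia, which summed to 1619 to 1773 CPM. Vehicle replicate 2 and BPA replicate 2 stood apart in transcripts of the choroid plexus, which summed to 222 and 351 CPM in them and to between 11.0 and 18.7 CPM in the other 4 libraries. These 2 libraries were in different groups, and the values of the 10 members with the smallest unadjusted p are also given without them.

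The comparison of BPA with vehicle asked whether maternal BPA altered the transcripts of the release machinery. In edgeR's quasi-likelihood test no member passed the adjusted p threshold of 0.1 (Benjamini-Hochberg over all genes tested), as 0 of 13741 genes (0%) did. At an unadjusted p under 0.05 there were 0 members, against 302 of all genes tested (2.20%), and for 0 members were the vehicle and BPA libraries free of overlap, against 928 of all genes tested (6.75%). The smallest unadjusted p among the members was 0.104, for Unc13b, and the adjusted p of every member was 1. In bulk tissue a smaller number of cells of one type and less RNA in each such cell cannot be told apart, and this holds for every level given here.

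The fitted log2 fold changes, BPA over vehicle, ran from -0.25 for Sv2c to 0.23 for Unc13b. They were below 0 for 26 members and above 0 for 11. Among all genes tested 49.5% were below 0, and the median was -0.036 for the members and 0.002 for all genes. This median was smaller than the spread of the members' median level between libraries of one group, which was 0.089 on the log2 scale. The standard errors of the members ran from 0.0882 to 0.227. The 95% interval of the fold change lay within 1.5-fold in both directions for 35 of the 37 members, as it did for 71.2% of all genes tested. The exceptions were Sv2c, whose interval on the log2 scale was -0.73 to 0.23, and Synpr, with -0.24 to 0.65. A narrower bound of 1.3-fold in both directions, set after the values were seen, held the intervals of 27 members, and of 42.3% of all genes tested. Differences of any size inside these intervals remained possible with 3 libraries in each group. The intervals do not give the smallest difference that would have passed the adjusted threshold. Without the 2 libraries high in choroid plexus transcripts 22 members were below 0 and their median was -0.037. In these 4 libraries the log2 fold change was 0.28 for Unc13b, -0.15 for Dnm3, -0.33 for Sv2c, -0.24 for Sv2a, -0.27 for Napb, -0.23 for Nsf, -0.07 for Rab3a, -0.06 for Synpr, -0.05 for Syn1 and 0.00 for Sncb. Synpr had another sign than with all 6 libraries, and Sncb moved from -0.13 to 0.00.

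**Figure D1:**
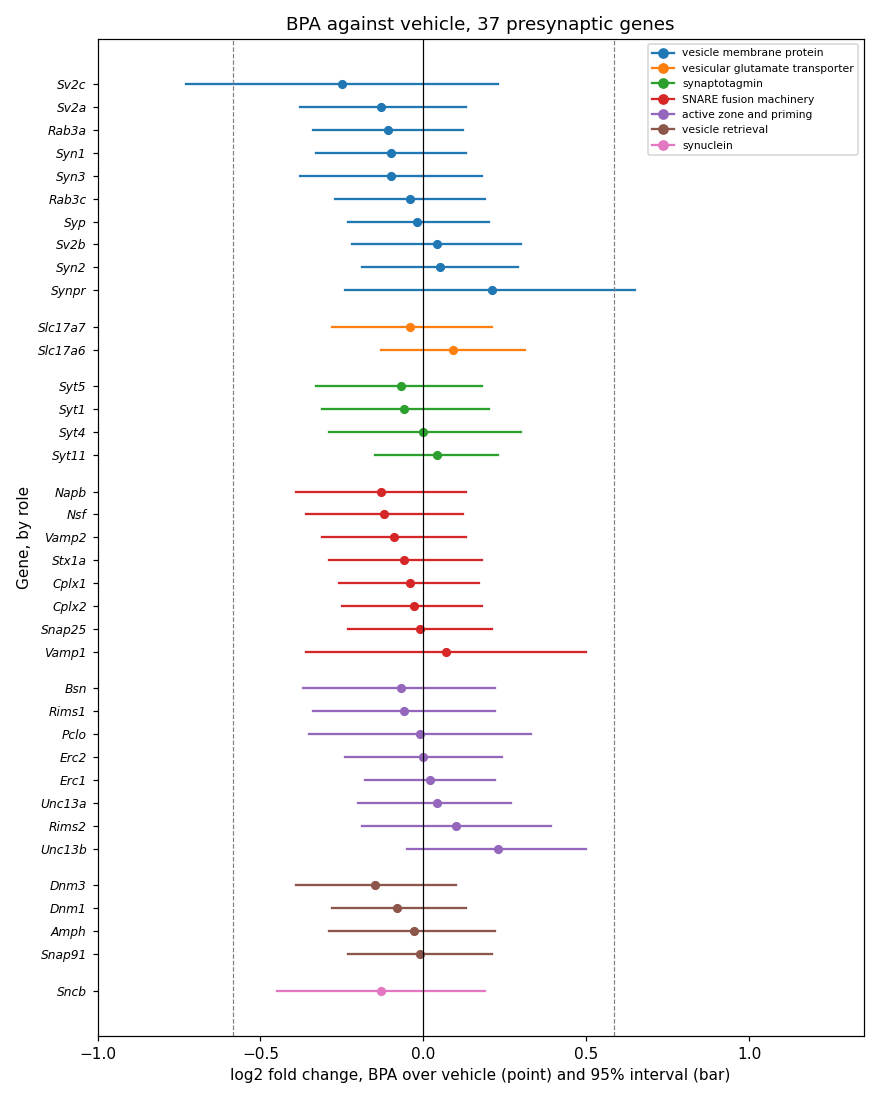
Fitted log2 fold change of each of the 37 genes, BPA over vehicle (point), with its 95% interval from edgeR's quasi-likelihood fit (bar), grouped and coloured by role. Dashed lines mark a 1.5-fold difference in either direction, which only the intervals of Sv2c and Synpr cross, and every interval includes 0.

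By role, 7 of the 10 vesicle membrane genes, with the synapsins and Rab3 genes counted among them, were lower in BPA by the fitted value. Their median log2 fold change was -0.068. Of the 8 genes of the SNARE fusion machinery, which here includes the complexins, Nsf and Napb, 7 were lower, with a median of -0.049. All 4 retrieval genes were lower (median -0.054), as was the 1 synuclein. The 8 active zone genes were divided into 4 lower and 4 higher (median 0.011), the 4 synaptotagmins into 2 and 2 (median -0.025), and the 2 glutamate transporters into 1 and 1 (median 0.026). None of these differences passed the test for any member, and the share of genes below 0 over all genes tested was 49.5%.

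The members differed far more from each other than between the groups. Levels were compared between genes as CPM per kilobase of exon, since long transcripts give more reads. The exonic length joins the exons of all annotated transcripts of a gene, and which transcripts were present was not tested. Over the 6 libraries the means of this length-scaled level ran from 0.914 for Vamp1 to 111 for Rab3a. The 5 highest members were Rab3a at 111, Vamp2 at 103, Syt11 at 76.4, Cplx2 at 74.5 and Syn1 at 57.3 CPM per kilobase. Rab3a was above Vamp2 in each of the 6 libraries, although the libraries ranged from 95.8 to 126 for Rab3a and from 90.9 to 117 for Vamp2. The order of Syt11 (73.0 to 79.4) and Cplx2 (65.7 to 83.6) differed between libraries. Syn1 (49.4 to 64.3) was below Cplx2 in every library. Next came Cplx1 at 51.3, Syt4 at 48.1, Syt5 at 38.1, Sv2a at 38.0 and Dnm1 at 31.6, followed by Stx1a, Sncb, Syt1, Rab3c, Syp, Amph and Unc13a between 29.1 and 21.1. Snap91, Snap25, Bsn, Nsf, Erc1, Slc17a6, Slc17a7 and Erc2 followed, the last with 13.2, and Syn2, Napb, Pclo, Rims1, Unc13b, Dnm3, Sv2b, Rims2 and Syn3 lay between 9.85 and 3.02. Only Synpr at 1.38, Sv2c at 1.28 and Vamp1 at 0.914 were under 2 CPM per kilobase, and Synpr was above Vamp1 in every library other than BPA replicate 1, as was Sv2c.

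**Figure D2:**
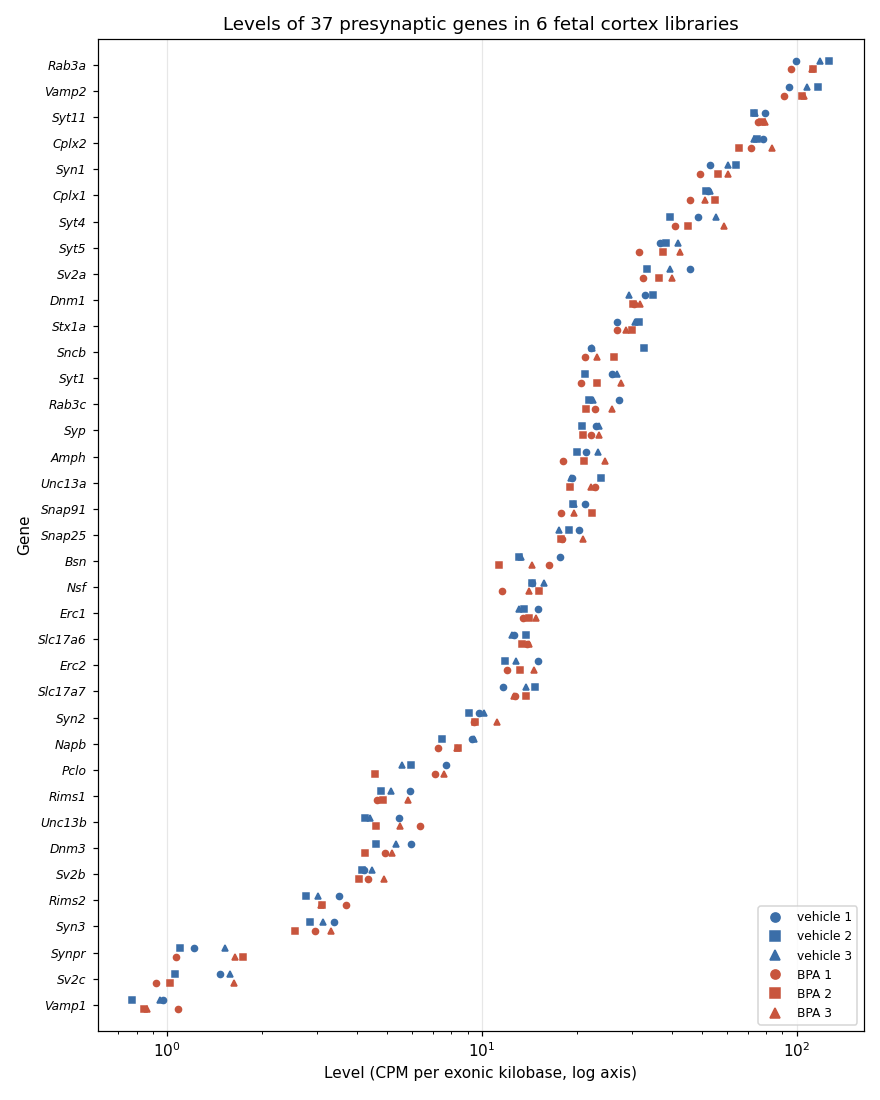
Length-scaled level of each of the 37 genes (horizontal axis, CPM per exonic kilobase, log scale) in the 3 vehicle libraries (blue) and the 3 BPA libraries (red), ordered by mean. The order runs from Rab3a at 111 to Vamp1 at 0.914, and the vehicle and BPA libraries overlap for every gene.

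Synapsins coat the cytoplasmic face of vesicles and tether them in clusters. Syn1 (GRCm38 chromosome X, 20860511 to 20921004, minus strand) was at 175, 212 and 199 CPM in vehicle and at 163, 185 and 199 CPM in BPA. Its log2 fold change was -0.10 (95% interval -0.33 to 0.13), and edgeR gave it an unadjusted p of 0.357. The lowest library was in BPA and the highest in vehicle, with the other 4 interleaved. With 1 library left out the log2 fold change of Syn1 lay between -0.18, without vehicle replicate 1, and -0.02, without BPA replicate 1. Syn2 was at 68.8, 63.9 and 71.4 CPM in vehicle and at 66.4, 66.6 and 78.5 CPM in BPA, a log2 fold change of 0.05 with a standard error of 0.113. Syn3 had a vehicle mean of 38.3 CPM ± 3.36 and a BPA mean of 36.0 CPM ± 4.68 (SD over 3 libraries). Of the exonic bases of Syn3, 14.11% overlapped Timp3 on the opposite strand. Timp3 had 79 to 138 counts per library, and because it is not stated whether the counting used strand, the reads of the overlapping part cannot be assigned with certainty.

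The SV2 proteins are glycoproteins of the vesicle membrane that regulate release, and 2 of the 3 genes were among the 4 members with the smallest unadjusted p. Sv2a (chromosome 3, 96181151 to 96195521, plus strand) was at 213, 155 and 184 CPM in vehicle and at 151, 169 and 186 CPM in BPA. The vehicle libraries alone covered almost the whole range, and the log2 fold change of Sv2a was -0.13 (95% interval -0.38 to 0.13). It was -0.01 without vehicle replicate 1, -0.06 without BPA replicate 1, -0.20 without BPA replicate 3 and -0.24 without vehicle replicate 2, so that 1 library decided its size. Sv2b was at 35.3, 34.9 and 37.5 CPM in vehicle and at 36.3, 34.0 and 40.8 CPM in BPA. Sv2c (chromosome 13, 95954594 to 96132577, minus strand), which in the adult is found mainly in the basal ganglia, was at 14.3, 10.3 and 15.4 CPM in vehicle and at 8.95, 9.91 and 15.8 CPM in BPA. Both of its lowest libraries were in BPA and its highest was in BPA as well. The fitted value of Sv2c was the lowest of the members, -0.25 with a standard error of 0.227, and it rested on 54 to 97 counts per library. With 1 library left out the log2 fold change of Sv2c was -0.09 without BPA replicate 1, -0.14 without vehicle replicate 3, -0.16 without BPA replicate 2, -0.41 without vehicle replicate 2 and -0.49 without BPA replicate 3, where its unadjusted p was 0.0456.

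Rab3 proteins are small GTPases that link vesicles to the active zone scaffold. Rab3a (chromosome 8, 70754679 to 70758677, plus strand) was at 222, 281 and 263 CPM in vehicle and at 213, 251 and 248 CPM in BPA. The lowest library of each group was vehicle replicate 1 and BPA replicate 1, and the log2 fold change was -0.11 (95% interval -0.34 to 0.12). Without vehicle replicate 2 it was -0.03, without BPA replicate 1 it was -0.04 and without vehicle replicate 1 it was -0.20. Rab3c was at 329, 263 and 272 CPM in vehicle and at 276, 257 and 312 CPM in BPA, with a log2 fold change of -0.04.

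Synaptophysin and synaptoporin are related membrane proteins of the vesicle. Syp was at 120, 108 and 123 CPM in vehicle and at 116, 109 and 123 CPM in BPA, nearly the same values in each group. On the log2 scale the difference was -0.02 (SE 0.102). Of the exonic bases of Syp, 16.79% overlapped the antisense gene Gm14703, which had 0 to 2 counts per library. Synpr (chromosome 14, 13284780 to 13616340, plus strand) had 78, 74 and 73 counts in vehicle and 64, 101 and 53 counts in BPA. In CPM, which takes the smaller size of BPA replicate 3 into account, the lowest library was BPA replicate 1 at 10.1 and the highest BPA replicate 2 at 16.4. The fitted log2 difference of Synpr was 0.21 (SE 0.210), and with 1 library left out it lay between 0.05, without BPA replicate 2, and 0.42, without BPA replicate 1. Without vehicle replicate 2 and BPA replicate 2, the libraries high in choroid plexus transcripts, it was -0.06.

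The vesicular glutamate transporters fill vesicles of excitatory neurons. In the mature brain Slc17a7 marks most cortical projection neurons and Slc17a6 most thalamic ones, and both are found in the developing cortex. Slc17a6 was at 68.1, 74.5 and 67.4 CPM in vehicle and at 75.2, 72.6 and 75.9 CPM in BPA. Slc17a7 was at 63.1, 79.5 and 74.3 CPM in vehicle and at 68.5, 74.6 and 68.0 CPM in BPA. The log2 fold changes were 0.09 (95% interval -0.13 to 0.31) for Slc17a6 and -0.04 (95% interval -0.28 to 0.21) for Slc17a7. The transcripts were present in almost equal amount, with a ratio of Slc17a6 to Slc17a7 per exonic kilobase of 1.08, 0.935 and 0.906 in vehicle and 1.10, 0.973 and 1.11 in BPA. The exact two-sided permutation p for this ratio was 0.2, and 0.982 after Benjamini-Hochberg adjustment over 12 pairs. Markers of the thalamus summed to 107 to 130 CPM in vehicle and 111 to 123 CPM in BPA.

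Synaptotagmins are vesicle proteins with calcium-binding domains, although not every family member binds calcium. Syt1, the calcium sensor of fast release, averaged 206 CPM ± 25.3 in vehicle and 198 CPM ± 29.0 in BPA (SD, n = 3 in each group, here and for the other means). Syt4 averaged 187 CPM ± 31.0 and 188 CPM ± 35.2, and Syt5 averaged 92.7 CPM ± 6.30 and 88.7 CPM ± 13.0. Each of these differences was smaller than 1 SD of either group. Syt11 (chromosome 3, 88744700 to 88775164, minus strand), a member that does not bind calcium, was at 411, 380 and 384 CPM in vehicle and at 393, 404 and 413 CPM in BPA. It had the smallest variation of the 37 genes, with a coefficient of variation over the 6 libraries of 3.55%, against a median of 10.2% and a maximum of 24.5% for Sv2c. The log2 fold change of Syt11 was 0.04 (95% interval -0.15 to 0.23). Of the exonic bases of Syt4, 14.54% overlapped the antisense gene Gm26658, which had 1 to 8 counts per library.

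The SNARE proteins VAMP, syntaxin and SNAP-25 form the complex that fuses membranes. Vamp2 (chromosome 11, 69088490 to 69092384, plus strand), the vesicle SNARE of most forebrain synapses, was at 359, 446 and 409 CPM in vehicle and at 346, 397 and 400 CPM in BPA. Its paralogue Vamp1, better known from brainstem and spinal cord, was at 9.85, 7.88 and 9.66 CPM in vehicle and at 11.0, 8.61 and 8.75 CPM in BPA. Per exonic kilobase Vamp2 was thus 83.5 to 150 times Vamp1, the widest ratio of the 12 pairs. Vamp1 and Vamp2 are in adjacent rows of the counts, where a shift of symbols would exchange them. Vim, under the same initial letter, had 2054 to 4616 counts in its own row and at most 107 in the rows beside it. Vim can show only a shift that also reached its own row, and an exchange of the Vamp rows alone was not tested. The plasma membrane SNAREs Snap25 and Stx1a averaged 128 CPM ± 9.75 and 79.0 CPM ± 6.57 in vehicle, and 128 CPM ± 11.8 and 76.0 CPM ± 4.38 in BPA. Log2 fold changes were -0.09 for Vamp2, 0.07 for Vamp1, -0.01 for Snap25 and -0.06 for Stx1a.

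Complexins bind the assembled SNARE complex. Cplx1 was at 114, 113 and 116 CPM in vehicle and at 100, 120 and 112 CPM in BPA. Cplx2 (chromosome 13, 54371349 to 54383917, plus strand) was at 386, 367 and 360 CPM in vehicle and at 353, 324 and 412 CPM in BPA. For both genes the BPA libraries lay on either side of the vehicle libraries, and the BPA range was the wider one. The log2 fold changes were -0.04 for Cplx1 and -0.03 for Cplx2, each with a 95% interval within 1.3-fold of no difference.

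Nsf and Napb take the spent SNARE complex apart, Nsf as the ATPase and Napb as its adaptor. Nsf (chromosome 11, 103821782 to 103954056, minus strand) was at 120, 120 and 131 CPM in vehicle and at 96.4, 127 and 118 CPM in BPA. Napb (chromosome 2, 148693985 to 148732467, minus strand) was at 65.7, 52.8 and 66.7 CPM in vehicle and at 51.2, 59.3 and 58.6 CPM in BPA. For both genes the lowest library was BPA replicate 1, and the log2 fold changes were -0.12 (95% interval -0.36 to 0.12) for Nsf and -0.13 (95% interval -0.39 to 0.13) for Napb. Without BPA replicate 1 they were -0.01 for Nsf and -0.06 for Napb. Leaving out any other library gave -0.08 to -0.20 for Nsf and -0.08 to -0.23 for Napb.

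Unc13 proteins prime docked vesicles for fusion. Unc13b (chromosome 4, 43058953 to 43264871, plus strand) was at 124, 96.7 and 100 CPM in vehicle and at 145, 105 and 125 CPM in BPA. Each BPA library exceeded at least 2 of the vehicle libraries, and vehicle replicate 1 lay above BPA replicate 2. The log2 fold change of Unc13b was 0.23 (95% interval -0.05 to 0.50), the highest of the members, and neither p reached its threshold in edgeR (0.104 unadjusted, 1 adjusted). Leaving out vehicle replicate 1 gave 0.35 with an unadjusted p of 0.0188, leaving out BPA replicate 2 gave an unadjusted p of 0.0159, and leaving out both libraries high in choroid plexus transcripts gave 0.0413, each with no member past the adjusted threshold. Without BPA replicate 1 the log2 fold change of Unc13b was 0.10, and without vehicle replicate 2 it was 0.16. Unc13a, the major form in excitatory forebrain neurons, was at 243, 302 and 242 CPM in vehicle and at 288, 240 and 281 CPM in BPA. For Unc13a the log2 fold change was 0.04 (SE 0.111). Unc13a overlapped Colgalt1 on the opposite strand over 3.92% of its exonic bases, and Colgalt1 had 264 to 636 counts per library.

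RIM proteins recruit calcium channels and Rab3 to the active zone. Rims1 was at 43.5, 35.1 and 37.9 CPM in vehicle and at 34.1, 35.8 and 42.9 CPM in BPA. Rims2 was at 36.6, 28.6 and 31.2 CPM in vehicle and at 38.3, 32.2 and 32.1 CPM in BPA. The ranges of the groups overlapped for both, with log2 fold changes of -0.06 and 0.10.

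Bassoon and piccolo, the giant scaffolds of the active zone, and the ELKS proteins were also measured. Bsn was at 282, 209 and 212 CPM in vehicle and at 260, 180 and 229 CPM in BPA. Pclo was at 173, 134 and 125 CPM in vehicle and at 159, 103 and 170 CPM in BPA. The spread within a group was wide for both, and their coefficients of variation over the 6 libraries were 16.3% for Bsn and 19.4% for Pclo. The log2 fold changes were -0.07 for Bsn and -0.01 for Pclo. Erc1 was at 245, 221 and 213 CPM in vehicle and at 219, 230 and 241 CPM in BPA. Erc2 was at 146, 115 and 125 CPM in vehicle and at 117, 128 and 142 CPM in BPA. Of the exonic bases of Erc1, 11.79% overlapped the antisense gene Gm44317. The ELKS genes had almost equal group means, with log2 fold changes of 0.02 for Erc1 and 0.00 for Erc2.

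Dynamins pinch off vesicles during endocytosis. Dnm3 (chromosome 1, 161982453 to 162478034, minus strand), the member with the longest exonic sequence, was at 145, 113 and 130 CPM in vehicle and at 120, 104 and 127 CPM in BPA. The highest library was in vehicle and the lowest in BPA, and the log2 fold change was -0.15 (95% interval -0.39 to 0.10). It was -0.05 without vehicle replicate 1, -0.06 without BPA replicate 2 and -0.24 without vehicle replicate 2. Dnm1 was at 173, 183 and 154 CPM in vehicle and at 160, 158 and 167 CPM in BPA, with a log2 fold change of -0.08. The adaptors Amph and Snap91, which bring dynamin and clathrin to the membrane, averaged 97.9 CPM ± 7.42 and 183 CPM ± 8.88 in vehicle, and 96.0 CPM ± 14.6 and 182 CPM ± 20.5 in BPA. Sncb (chromosome 13, 54758860 to 54766595, minus strand) encodes beta-synuclein, a vesicle-associated relative of alpha-synuclein, and was at 47.5, 70.2 and 47.9 CPM in vehicle and at 45.7, 56.2 and 49.9 CPM in BPA. Replicate 2 was the highest library of each group for Sncb. The fitted log2 difference of Sncb was -0.13 (SE 0.151), and it was 0.09 without vehicle replicate 2 and -0.23 without vehicle replicate 1.

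Related members were next compared within each library, where a ratio needs no scaling between libraries. For 12 pairs the ratio of counts per exonic kilobase was taken in every library and the groups were compared by an exact two-sided permutation test, for which the smallest p with 3 libraries against 3 is 0.1. No pair reached it. The smallest p was 0.2, for Slc17a6 over Slc17a7 and for Syn1 over Syn2, and the adjusted p was at least 0.982 for all 12. Most pairs had a member that was the higher one by this length-scaled ratio in every library. Vamp2 was 112 times Vamp1 on average, Syp was 16.4 times Synpr (at most 20.7), Sv2a was 8.67 times Sv2b (7.52 to 10.9), Dnm1 was 6.31 times Dnm3 (5.54 to 7.59) and Syn1 was 5.80 times Syn2 (5.23 to 7.07). Smaller ratios were found for Rab3a over Rab3c, at 4.68 (3.65 to 5.77), and for Unc13a over Unc13b, at 4.15 (3.52 to 5.63). The ratios depend on exonic length, which was 2226 bases for Rab3a and 12049 for Rab3c. In CPM alone Rab3c had the higher means, 288 against 255 in vehicle and 282 against 237 in BPA. Dnm1 stayed above Dnm3 in CPM, with vehicle means of 170 and 129. Rims1 exceeded Rims2 by 1.63 times (1.26 to 1.88) and Cplx2 exceeded Cplx1 by 1.45 times (at most 1.63), whereas Pclo was at 0.445 of Bsn (0.406 to 0.526). Erc1 and Erc2, with a mean ratio of 1.06 (at most 1.15), and the glutamate transporters, with 1.01 (0.906 to 1.11), were close to equal. All pairs other than Slc17a6 over Slc17a7 kept the same order of their members in all 6 libraries. For Erc1 over Erc2 the log2 ratio was as small as 0.01, in vehicle replicate 1.

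**Figure D3:**
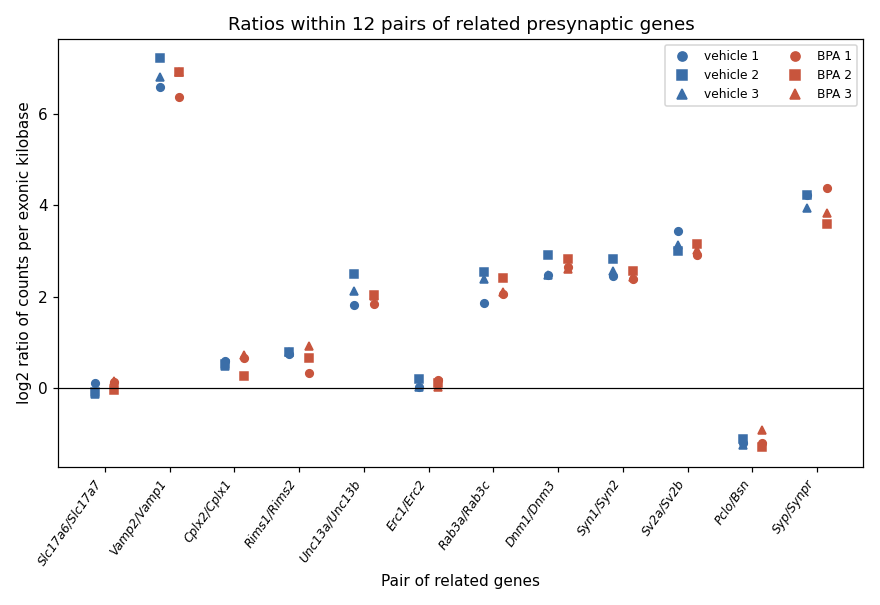
Log2 ratio of counts per exonic kilobase (vertical axis) for 12 pairs of related genes in the 3 vehicle (blue) and 3 BPA (red) libraries. The vehicle and BPA points of a pair overlap in all 12, and the pairs themselves run from about equal for Slc17a6 over Slc17a7 and Erc1 over Erc2 to 112 times on average for Vamp2 over Vamp1.

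The other genes of the pathway were taken from a wider list of 89 presynaptic genes, of which 88 were in the table and 79 had enough counts to be tested. None passed the adjusted threshold in edgeR's quasi-likelihood test. By the fitted value 49 were lower in BPA (all genes tested, 49.5%) and 30 higher, and the median log2 fold change was -0.037. At an unadjusted p under 0.05 there was 1 gene (all genes tested, 2.20%), and the libraries did not overlap for 4 (all genes tested, 6.75%). That 1 gene was Slc32a1, the vesicular transporter for GABA and glycine that marks inhibitory neurons. It was at 45.6, 50.8 and 49.1 CPM in vehicle and at 31.4, 44.0 and 40.6 CPM in BPA. Every BPA library was lower than every vehicle library, and the log2 fold change was -0.33 (95% interval -0.62 to -0.05). In edgeR the unadjusted p of Slc32a1 was 0.0253, and 1 after adjustment. The other 3 genes without overlap, which were picked out after their values were seen, were Rab27b and Sgip1, lower in BPA, and Itsn2, higher. Their log2 fold changes were -0.60 (SE 0.312), -0.15 (SE 0.104) and 0.20 (SE 0.123). That of Rab27b rested on 10 to 29 counts per library. The 9 genes with too few counts were Slc17a8, Slc18a1, Slc18a3, Slc30a3, Syt10, Syt12, Cplx3, Cplx4 and Sncg, among them the transporters for acetylcholine and vesicular zinc.

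Markers of cell types were set beside these values. The 37 members together summed to 5478, 5223 and 5280 CPM in vehicle and to 5005, 5044 and 5599 CPM in BPA, a range of 1.12-fold in which the BPA libraries held both the lowest and the highest. The 12 markers of postmitotic neurons summed to 11144 to 12020 CPM in vehicle and 10718 to 11803 CPM in BPA, the highest over the lowest again 1.12-fold. Of these markers 11 were lower in BPA by the fitted value (all genes tested, 49.5%), with a median log2 fold change of -0.091. None had an unadjusted p under 0.05 in edgeR. The interneuron markers, to which Slc32a1 is related in function, were lower in BPA for all 9 genes, with a median of -0.207. They summed to 1176, 1192 and 1087 CPM in vehicle and to 1020, 1035 and 968 CPM in BPA. The groups did not overlap in this sum nor in 5 of the 9 genes (all genes tested, 6.75%). Unadjusted p was under 0.05 in edgeR for 2 of the 9, Dlx1 and Lhx6 (all genes tested, 2.20%), and 1 after adjustment. The 6 markers of the ventral telencephalon, where these interneurons are born, were lower in BPA for all 6 genes, with a median log2 fold change of -0.853. The groups did not overlap for 4 of them (all genes tested, 6.75%), and 4 had an unadjusted p under 0.05 (all genes tested, 2.20%). The smallest was that of Nkx2-1 (3.65e-05, adjusted p of 0.251 in edgeR). The sum of the ventral markers overlapped between the groups, at 295, 170 and 141 CPM in vehicle and 100, 163 and 102 CPM in BPA. Zic1 gave the largest part of it in every library, with 164 CPM in vehicle replicate 1 and 82.2 CPM in BPA replicate 2. How far cell composition contributed to the values of Slc32a1 and of the members was not tested. Markers of deep layer neurons summed to 1799 to 2107 CPM and those of upper layer neurons to 1582 to 1774 CPM, with the groups overlapping in both. Among the deep layer markers Foxp2 was lower without overlap (-0.27, unadjusted p of 0.0325 in edgeR), while 4 of the 6 were higher. Oligodendrocyte precursor markers were lower in BPA for all 4 genes (all genes tested, 49.5%), with a median of -0.287. Of the 4, Olig1 (-0.45) and Olig2 (-0.44) had an unadjusted p under 0.05 in edgeR (all genes tested, 2.20%). Pdgfra (-0.14) and Sox10 (-0.05) did not. Cajal-Retzius markers were higher for 4 of 5 (median 0.166).

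**Figure D4:**
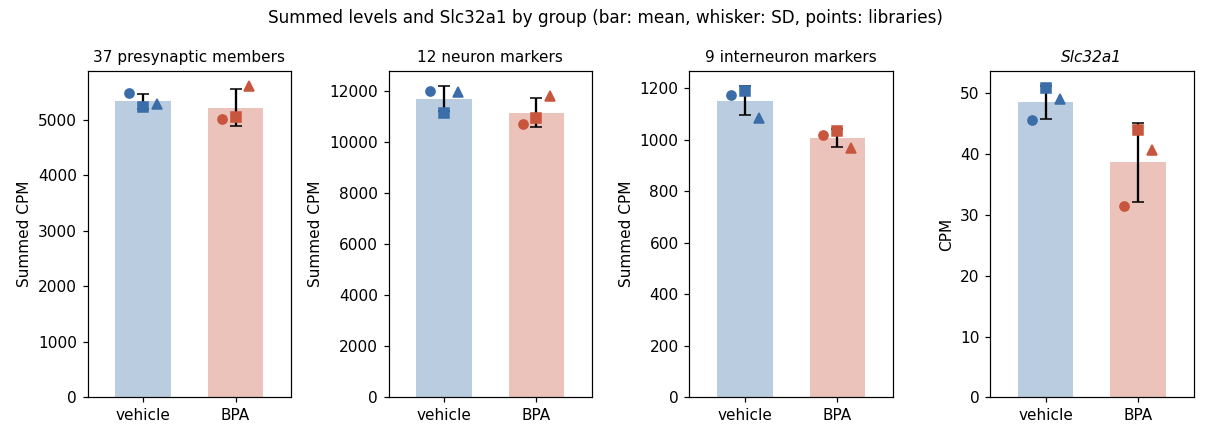
Summed CPM of the 37 presynaptic genes, of 12 neuron markers and of 9 interneuron markers, and CPM of Slc32a1, in vehicle (blue) and BPA (red). Bars are means from 0, whiskers the SD of 3 libraries and points the libraries, and the groups overlap in the first 2 panels but not in the interneuron markers or Slc32a1.

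The members varied between libraries of one group in a way that followed transcript length. This pattern was looked for after the values had been seen, and it is a description over 37 genes that share their libraries. The difference of a member's log2 CPM from its own mean over the 6 libraries was correlated with exonic length, and Spearman's rho was 0.60 in vehicle replicate 1, -0.49 in vehicle replicate 2, -0.33 in vehicle replicate 3, 0.52 in BPA replicate 1, -0.53 in BPA replicate 2 and 0.15 in BPA replicate 3. Over 13126 genes with a known length the same correlations were 0.19, -0.11, -0.29, 0.19, -0.29 and 0.21, with the same signs. Each group thus held libraries in which long members were relatively high and libraries in which they were relatively low. The 5 longest members were Pclo, Bsn, Unc13b, Dnm3 and Erc1, and the 5 shortest were Sncb, Cplx1, Rab3a, Syt5 and Stx1a. In BPA replicate 1 the median difference from the mean was -0.19 for the 5 shortest and 0.17 for the 5 longest, while in BPA replicate 2 it was 0.05 and -0.24. In vehicle replicate 1 it was -0.11 and 0.24, and in vehicle replicate 2 it was 0.11 and -0.11. Of the members, 16 had their lowest level in BPA replicate 1, where 16.8% of all genes tested had theirs, and 11 had their highest in BPA replicate 3, where 17.4% of all genes did. No member was lowest in BPA replicate 3, against 19.5% of all genes. RNA quality was not given for the samples, and its part in the pattern was not tested.

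**Figure D5:**
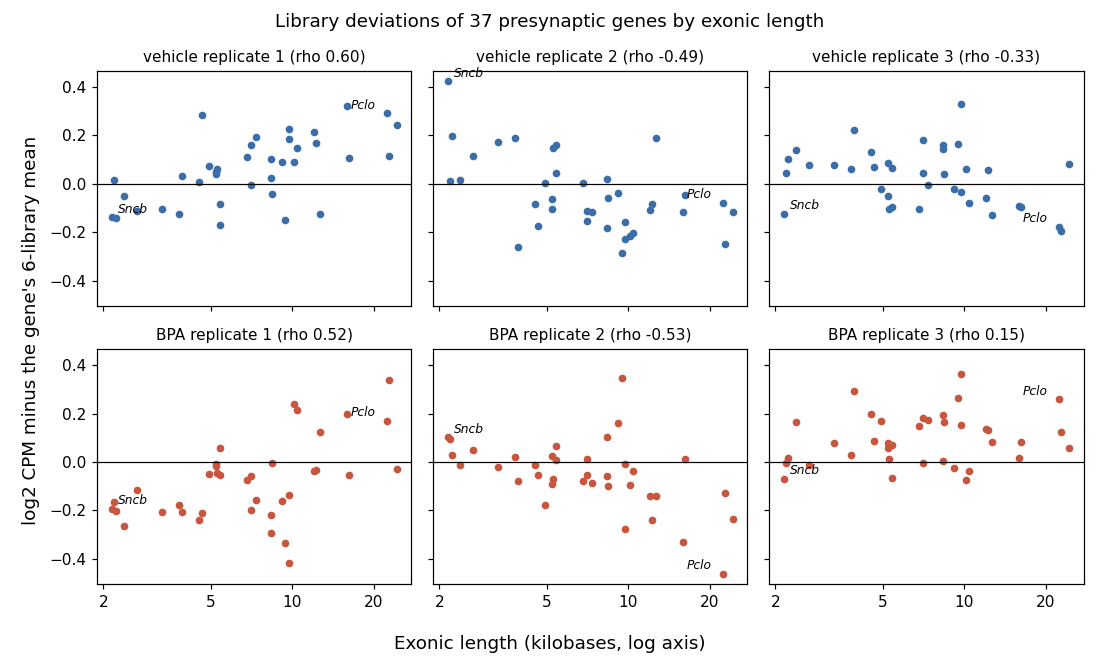
Difference of each member's log2 CPM from its own 6-library mean (vertical axis) against its exonic length (horizontal axis, kilobases, log scale), 1 panel per library, with Spearman's rho over 37 genes. Pclo, Bsn and Unc13b are above their mean in the replicate 1 library of each group and below it in the replicate 2 library, while Dnm3 and Erc1 are slightly below it in BPA replicate 1 and Erc1 slightly above it in BPA replicate 2.

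Promoter sequences were examined for motifs of the pathways that the study addresses, estrogen signaling and cyclic AMP response element binding. RefSeq promoters (GRCm38.p6, 250 bases before to 50 bases after a transcription start) were found for 31 of the 37 members, as 39 promoters, and were set beside all 32851 promoters of the same length. The missing members were Rims2, Snap25, Syn3, Syt4, Syt5 and Vamp2. Both strands were searched. The palindromic estrogen response element GGTCANNNTGACC was in the promoter of 0 members and in 0.0700% of all promoters. AGGTCA, which spells 1 arm of that element with the base before it, was in the promoters of Erc2 and Syt1 and in 16.3% of all, and the full cyclic AMP response element TGACGTCA was in that of Syn1 and in 1.79% of all. CAGCACC, the left part of the element bound by the neuronal repressor REST, was found for Sv2c, Syn1 and Unc13a and in 7.14% of all promoters. The GC box GGGCGG was found for 24 of the 31 members (24 of their 39 promoters) and in 35.7% of all promoters. The TATA box TATAAA was found for Sv2b alone (2 of the 39 promoters) and in 13.6% of all. The median number of CG dinucleotides was 17.0 in the members' promoters and 7 in all. A match describes letters in this window and not a bound site.

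The 3 promoters with a match to the cyclic AMP response element or to the short motif AGGTCA are printed here because they are the members that hold these letters, and the full estrogen response element is in none of them. Each is written 5′ to 3′ on the strand of its gene with the match in capitals, which begins 159 bases before the start in Syn1, 156 in Syt1 and 186 in Erc2. Syn1 lies at chrX:20920869-20921168 (minus strand), Syt1 at chr10:109009062-109009361 (minus strand) and Erc2 at chr14:27622157-27622456 (plus strand). Vehicle and BPA libraries overlapped for all 3, with log2 fold changes of -0.10 (Syn1), -0.06 (Syt1) and 0.00 (Erc2).
Syn1: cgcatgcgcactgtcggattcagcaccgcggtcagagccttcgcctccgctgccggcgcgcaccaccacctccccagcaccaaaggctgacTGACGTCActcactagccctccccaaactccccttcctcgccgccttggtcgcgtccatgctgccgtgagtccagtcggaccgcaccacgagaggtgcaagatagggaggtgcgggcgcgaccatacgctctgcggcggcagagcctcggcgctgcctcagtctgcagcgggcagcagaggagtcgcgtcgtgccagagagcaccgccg
Syt1: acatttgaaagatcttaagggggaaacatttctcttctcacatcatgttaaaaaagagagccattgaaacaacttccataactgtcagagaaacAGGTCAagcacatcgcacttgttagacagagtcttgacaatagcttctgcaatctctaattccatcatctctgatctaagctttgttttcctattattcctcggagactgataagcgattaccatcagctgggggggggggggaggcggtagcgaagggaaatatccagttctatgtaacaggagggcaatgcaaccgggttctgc
Erc2: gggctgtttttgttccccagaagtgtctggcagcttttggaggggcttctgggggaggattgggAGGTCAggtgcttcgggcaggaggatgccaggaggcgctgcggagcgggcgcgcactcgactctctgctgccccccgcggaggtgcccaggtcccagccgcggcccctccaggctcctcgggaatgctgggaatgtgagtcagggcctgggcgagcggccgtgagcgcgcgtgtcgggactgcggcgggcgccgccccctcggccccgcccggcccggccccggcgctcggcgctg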

How the data were processed

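Counts of reads per gene were deposited by the authors for 6 libraries, 3 vehicle and 3 BPA, as whole numbers without normalization. According to the study's methods and the submitters' processing notes, strand-specific libraries of total RNA gave single-end reads of 50 bases, which were aligned to GRCm38 with TopHat 2.0.14, and counted by featureCounts with GENCODE models. StringTie 1.2.4 is also named. The strand option and the treatment of multiply aligned reads are not stated, which makes counts of overlapping genes uncertain. The authors' own comparisons were not used.

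The labels gave the groups. Replicate numbers follow accession order, and the labels give no pairing. Whether libraries with the same number were handled together is not known. Counts of the 15 pairs of libraries had a chi-square of 2.52 to 8.48 per degree of freedom, above sampling noise. The deposited counts were analysed in R 4.3.3 with edgeR 4.0.16. Of 23501 genes with a count, 13741 were kept by filterByExpr at its minimum count of 10 and minimum total of 15, and they held 99.7% of all counts. After TMM scaling, vehicle and BPA were compared by edgeR's quasi-likelihood test with no covariate, and p-values were adjusted over all genes by the Benjamini-Hochberg method, with a threshold of 0.1. The biological coefficient of variation was 0.106. CPM values use TMM-scaled library sizes. Standard errors and 95% intervals were derived from the quasi-likelihood statistic. Total counts of 3444601 to 7180835 per library set the precision, and the floor was 3 counts, for counting error only. Coordinates and exonic lengths are those of GENCODE M21 (GRCm38), and the length of a gene joins the exons of all its annotated transcripts. Ratios of related genes used a prior count of 0.5.

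The members, the wider presynaptic list, the markers, the pairs and the tests were chosen with earlier results of these data known, and no test was made over a list. Values in every library are given for the 10 members with the smallest unadjusted p, the 5 with the highest length-scaled level and both genes of each pair, for Synpr as counts. Members at or near the floor would have been added, and there were none. In the wider list the genes with an unadjusted p under 0.05 are named. The alternatives were DESeq2 1.42.0, limma-voom (limma 3.58.1), other scalings, filters on low counts, robust dispersion, thinning to the smallest library, another prior count for ratios and omission of each library. The omission of both libraries high in choroid plexus transcripts was chosen after seeing the data. The edgeR quasi-likelihood fit to all libraries was also run on simulated data, while the alternatives and the permutation test were not. Protein sequences were not used here.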

Additional observations from a re-analysis of the deposited data

How the results depend on the processing

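No member passed the adjusted threshold of 0.1 under any of the 16 alternatives. Over all genes tested the count was 0, against 3 with DESeq2, 19 with no filter on low counts (23501 genes tested), 14 without both libraries high in choroid plexus transcripts (chosen after seeing the data), and 0 to 1 when 1 library was left out. At an unadjusted p under 0.05 the count over all genes was 302, against 162 where 10 CPM in 3 libraries were required, 126 with DESeq2, 620 without a filter, 699 without vehicle replicate 2, 192 without vehicle replicate 3, 189 without BPA replicate 1, 546 without BPA replicate 2 and 952 without both libraries high in choroid plexus transcripts. The cause was not tested. The members' median log2 fold change was between -0.098, without BPA replicate 3, and -0.003, without BPA replicate 2, and members below 0 numbered from 19, without vehicle replicate 1 or without BPA replicate 2, to 30, without BPA replicate 3. Sncb was at 0.01 after thinning to the smallest library, at -0.23 to 0.09 when 1 library was left out (0.09 without vehicle replicate 2) and at 0.00 without both libraries high in choroid plexus transcripts, and Synpr was at -0.06 without both. Of the 10 members with the smallest unadjusted p, Sncb alone had another sign when 1 library was left out. Unc13b had an unadjusted p under 0.05 in 3 of these fits, Sv2c in 1 and Unc13a in 1. Pairs at the smallest p numbered 0, and from 0 to 3 when 1 library was left out, where the smallest p is 0.2. No paired analysis was possible because the labels give no replicate numbers that the groups share. Among the members, depth limits Vamp1, Synpr and Sv2c most, which had 30 to 101 counts per library.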
